A study of Mus musculus with 6 samples.

Results

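Genes of the Wnt and hedgehog pathways were examined in vascular smooth muscle cells cultured from mouse aorta. The tested cells had received a small interfering RNA against Sirt6 (siSirt6, 3 libraries) and were set against control cultures (Control, 3 libraries), both sampled at 48 h. The Sirt6 protein removes acyl groups from histones, using NAD. The sources used here give neither what the control cultures received nor whether the libraries of a group came from separate animals or cultures, so p-values measure the spread between these libraries. The genes were chosen by symbol, from families of Wnt ligands, receptors, antagonists and transducers and from the hedgehog receptors and Gli factors: 46 of the 7384 genes in the deposited tables matched. The deposited tables give a normalised read count for each gene and library (reads divided by 1 factor per library).

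In the canonical Wnt pathway, a secreted Wnt protein binds a Frizzled receptor together with the co-receptor Lrp5 or Lrp6. This stops a cytoplasmic complex that holds Apc and Gsk3b from degrading beta-catenin (Ctnnb1), which then enters the nucleus and acts with TCF/LEF factors in place of Tle co-repressors. In the hedgehog pathway, a ligand bound by Patched and its co-receptors releases Smoothened (Smo), which sets the balance between activator and repressor forms of the Gli factors. In the artery wall both pathways are known for control of smooth muscle growth and phenotype.

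Sirt6 itself stood at 44.5, 59.8 and 63.5 normalised read counts in siSirt6 libraries, against 251.7, 257.0 and 270.4 in Control libraries, 0.215 of the Control mean. Recovered reads over all listed genes numbered 14614192 to 15526399 per siSirt6 library and 14458847 to 14563794 per Control library; the whole library depth is unknown. The tables hold almost only genes that differ: of 7179 genes with at least 10 normalised read counts in at least 3 libraries, 50.5% were higher and 49.3% lower in siSirt6 (limma with Benjamini-Hochberg adjusted p under 0.05). A passing test is therefore no distinction here, and direction and size carry the description. Of 15 smooth muscle markers fixed for the check, 12 were in the tables, with 10 higher and 2 lower in siSirt6. As the tables hold almost only genes that differ, a marker's place in them does not show which cell types were present. Acta2, which encodes smooth muscle actin, had 96835.8 ± 420.1 normalised read counts in siSirt6 and 58252.9 ± 107.4 in Control (SD, n = 3 each). Tagln had 396.5, 338.1 and 310.1 in siSirt6 and 175.6, 148.0 and 212.5 in Control. Endothelial markers (11 of 15 in the tables) were all higher, their summed level being 4494.7 to 4655.4 in siSirt6 and 2977.0 to 3226.7 in Control. Adventitial fibroblast markers (10 of 12) were divided, 4 higher and 6 lower. They summed to between 94207.1 and 95790.8 in siSirt6 and between 109606.8 and 110433.5 in Control. Most of that sum, and nearly all of its fall, was Gsn, with 57433.2 ± 590.0 in siSirt6 and 72100.0 ± 521.4 in Control (SD). The sum therefore does not show a general fall of these markers. With the length and GC trend described below subtracted, 2 were higher and 7 lower. Of 12 macrophage and leukocyte markers 3 were in the tables (C1qb, Lyz2 and Cd68), with sums of 1977.6 to 2017.9 in siSirt6 and 1776.9 to 1821.7 in Control. All 3 passed as higher, but none passed with libraries scaled to their listed totals, and with the trend subtracted 0 were higher and 1 was lower (Lyz2, log2 fold change -0.16). No marker in the tables stood at 0 in any library; the part of these cell types in the results below was not tested, and in bulk RNA fewer cells of a type cannot be told apart from less RNA per cell.

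Of the 46 pathway genes, 45 passed the filter on low values, and 12 were higher and 33 lower in siSirt6; all 45 passed the test, as did 99.8% of all tested genes. The 3 tested Wnt ligands rose while most receptors and secreted antagonists fell. With the length and GC trend described below subtracted, 7 receptors and co-receptors were lower, 1 was higher and 3 did not pass. Their median log2 fold change was then -0.254 in place of -0.488, and that of the antagonists -0.82 in place of -0.875. Over all tested genes the median was -0.005 with the trend subtracted. The 45 had a median log2 fold change of -0.317, against 0.085 over all 7179 genes tested, and 73.3% of them were lower. Their groups of 3 libraries did not overlap in any case, which was also true of 96.8% of all tested genes (49.0% higher and 47.8% lower). At least 2-fold rises were seen for Wnt2 and Sfrp4 (4.16% of all tested genes), and falls to 0.5 or less for Rspo2 and Frzb (3.77%). Just short of that mark stood Dkk3 at 0.5005 and Fzd1 at 0.509 of Control. Sfrp4 passed the filter on low values only because its siSirt6 values were high. Its rise and its place among the 12 higher genes are therefore no support for a difference.

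**Figure D1:**
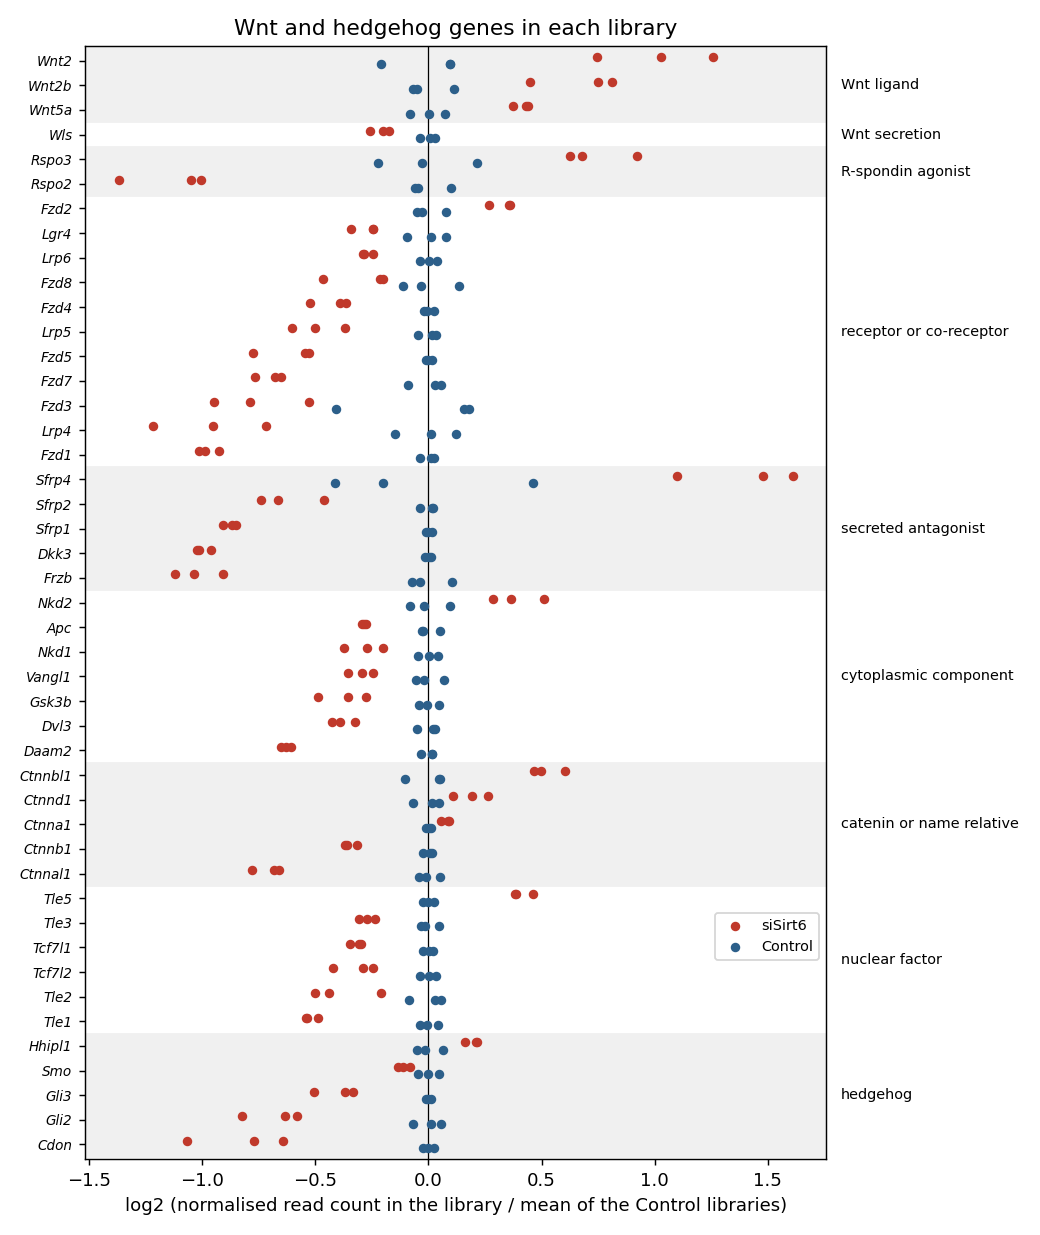
Each point is 1 library, plotted as log2 of its normalised read count over the mean of the 3 Control libraries, for 45 tested genes grouped by role; siSirt6 points lie above Control points in each row. The 3 Wnt ligands lie to the right of Control in all siSirt6 libraries, and 10 of 11 receptors and co-receptors lie to the left.

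All 3 tested Wnt ligands were higher in siSirt6. Wnt2, a ligand of the canonical branch, lies on chromosome 6 at 17988940 to 18030585 (GRCm38, minus strand) and had 225.5, 263.9 and 185.2 normalised read counts in siSirt6 libraries, against 118.1, 95.4 and 117.8 in Control libraries. It rose 2.04-fold, a log2 fold change of 1.01 ± 0.130 (SE; limma adjusted p = 2.34e-08), and its siSirt6 values were the more widely spread. Wnt2b, its close relative, had 106.8, 86.6 and 111.4 in siSirt6 and 60.5, 61.3 and 68.6 in Control, and rose 1.60-fold (log2 0.66 ± 0.163 SE). Wnt5a, the best-known ligand of the beta-catenin-independent branches, was the most read of the ligands, with 702.1, 671.1 and 697.3 in siSirt6 and 545.4, 488.8 and 519.6 in Control. It rose 1.33-fold (log2 0.41 ± 0.062 SE, limma adjusted p = 4.02e-07). Wnt8a was left out of the test because no library reached 10 normalised read counts. It had 0.989, 0 and 0 in siSirt6, all below the 3 reads taken as the floor, and 0.976, 3.90 and 6.76 in Control. Wnt8a was thus the only 1 of the 4 ligands with a lower mean in siSirt6, on too few reads to give a direction. Summed per kilobase of the longest transcript, the 4 Wnt genes came to 229.0 ± 12.3 in siSirt6 and 144.2 ± 9.97 in Control (SD, n = 3 each), 1.59 times the Control level. Wls, the carrier that brings Wnt proteins to the cell surface, went the other way: it had 5042.0, 5234.8 and 5336.6 in siSirt6 and 5873.1, 6147.5 and 6046.7 in Control, a fall to 0.864.

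Promoter sequence is shown for the most changed gene among ligands, receptors, antagonists and hedgehog genes that has a RefSeq start (GRCm38.p6) within 300 bases of the GENCODE gene start; each runs from 250 bases before to 50 after the start, 5′ to 3′ on the gene's strand. Capitals mark every match, on either strand, to 5 short motifs searched: CTTTGAA and CTTTGAT (TCF/LEF), CCACCCA (the core of the GLI site), GGGCGG (the GC box) and TATAAA. Matches were allowed to overlap. The windows lie at chr6:18030396-18030695 for Wnt2, chr5:4758167-4758466 for Fzd1, chr2:80447347-80447646 for Frzb and chr1:119053570-119053869 for Gli2, all on the minus strand.
Wnt2: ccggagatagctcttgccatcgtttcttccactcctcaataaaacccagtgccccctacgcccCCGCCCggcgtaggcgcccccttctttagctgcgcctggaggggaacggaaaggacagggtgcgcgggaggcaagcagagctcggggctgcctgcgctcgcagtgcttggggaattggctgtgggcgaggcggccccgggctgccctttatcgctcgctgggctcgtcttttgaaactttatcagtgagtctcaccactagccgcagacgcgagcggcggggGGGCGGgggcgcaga
Fzd1: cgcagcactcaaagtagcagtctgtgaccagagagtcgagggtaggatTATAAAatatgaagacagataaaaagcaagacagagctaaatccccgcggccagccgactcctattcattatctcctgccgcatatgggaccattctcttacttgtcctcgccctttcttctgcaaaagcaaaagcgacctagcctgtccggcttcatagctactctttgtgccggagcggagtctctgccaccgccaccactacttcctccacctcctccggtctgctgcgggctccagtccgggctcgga
Frzb: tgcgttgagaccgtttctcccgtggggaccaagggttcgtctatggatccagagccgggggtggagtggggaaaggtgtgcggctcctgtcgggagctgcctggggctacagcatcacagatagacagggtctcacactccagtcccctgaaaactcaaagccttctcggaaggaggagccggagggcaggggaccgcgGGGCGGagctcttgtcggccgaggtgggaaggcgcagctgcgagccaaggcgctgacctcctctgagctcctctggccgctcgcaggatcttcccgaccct
Gli2: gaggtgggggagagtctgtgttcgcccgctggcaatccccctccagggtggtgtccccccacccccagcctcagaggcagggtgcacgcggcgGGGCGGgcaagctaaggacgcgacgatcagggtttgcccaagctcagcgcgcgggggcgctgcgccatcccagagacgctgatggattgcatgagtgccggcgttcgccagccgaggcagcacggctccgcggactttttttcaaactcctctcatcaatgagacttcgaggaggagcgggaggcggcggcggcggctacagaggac
The Wnt2, Frzb and Gli2 windows hold the GC box, and the Fzd1 window holds TATAAA far upstream of the start. Of 46 genes, 29 had an entry, with 33 promoters in all. The GC box was in 60.6% of these 33 and in 35.7% of all 32851 promoters in the table, and the GLI core in 12.1% and 9.30%. TATAAA was in 15.2% and 13.6%. Neither TCF/LEF motif was found in the 33; CTTTGAA was in 5.14% and CTTTGAT in 3.73% of all promoters. The median GC content was 65.7% in the 33 and 52.7% in all promoters. These are matches of letters in a short window, with no binding data behind them.

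The R-spondins, secreted proteins that bind Lgr receptors and keep Frizzled receptors at the cell surface, moved in opposite directions. Rspo2, on chromosome 15, had 113.7, 110.3 and 88.5 normalised read counts in siSirt6 libraries, against 244.9, 219.1 and 221.2 in Control libraries. It fell to 0.456 (log2 fold change -1.13 ± 0.123 SE, limma adjusted p = 6.28e-10), the largest fall among the 45. Rspo3, on chromosome 10, had 159.2, 195.9 and 165.5 in siSirt6 and 120.0, 88.6 and 101.4 in Control, and rose 1.68-fold (log2 0.75 ± 0.135 SE). Of the summed level of the pair per kilobase of transcript, Rspo3 took 64.3% ± 3.58 in siSirt6 and 32.8% ± 2.13 in Control (SD, n = 3 each). Their sum was 87.4 ± 8.34 in siSirt6 and 101.9 ± 9.28 in Control, with overlapping libraries. Lgr4, an R-spondin receptor, fell to 0.826, with 325.3, 304.1 and 325.7 in siSirt6 and 388.4, 407.0 and 361.2 in Control. The Lgr4 call was lost with the length and GC trend subtracted (log2 -0.06, limma adjusted p = 0.507).

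Of 7 Frizzled receptor genes, 6 fell and Fzd2 rose. Fzd1 (chromosome 5, 4753839 to 4758035, minus strand) had 1096.6, 1076.2 and 1142.7 normalised read counts in siSirt6 libraries, against 2188.6, 2116.7 and 2209.7 in Control libraries. It fell to 0.509, a log2 fold change of -0.97 ± 0.040 (SE; limma adjusted p = 5.57e-21). Fzd7 fell to 0.617, with 799.0, 752.5 and 815.9 in siSirt6 and 1305.6, 1203.4 and 1330.8 in Control. The siSirt6 libraries of both genes lay far below every Control library. Fzd2 (chromosome 11, 102604396 to 102608058, plus strand) had 2180.4, 2176.2 and 2048.1 in siSirt6 and 1792.5, 1640.6 and 1665.0 in Control. It rose 1.26-fold (log2 0.33 ± 0.039 SE, limma adjusted p = 4.73e-09). Fzd5 fell to 0.654, Fzd4 to 0.745, and Fzd8 to 0.818. With the length and GC trend subtracted, the log2 fold change of Fzd5 was -0.38 in place of -0.62. That of Fzd4 was -0.14 in place of -0.43. The Fzd8 call was lost with the length and GC trend subtracted (log2 -0.07, limma adjusted p = 0.360). Fzd3, the least read, had 75.2, 62.9 and 56.2 in siSirt6 and 121.0, 81.8 and 122.7 in Control, a fall to 0.597 in which the nearest libraries almost met. With the trend subtracted its log2 fold change was -0.37 in place of -0.72 (limma adjusted p = 0.0393).

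The make-up of the 7 Frizzled genes analysed changed with these moves. Sums and shares given here cover only the family members analysed, so they are not shares of a whole family. The length and GC trend was not subtracted from any of these sums or shares. Per kilobase of transcript, the 7 genes summed to 1302.8 ± 22.2 in siSirt6 and 1644.9 ± 46.8 in Control (SD, n = 3 each). Fzd2 took 44.7% ± 1.10 of that sum in siSirt6 and 28.2% ± 0.753 in Control, while Fzd1 took 20.2% ± 0.865 and 31.5% ± 0.499. Fzd1 was thus above Fzd2 in every Control library and below it in every siSirt6 library, a comparison within each library that no scaling between libraries can change. Fzd7 took 13.4% ± 0.625 in siSirt6 and 17.2% ± 0.565 in Control. The shares of Fzd3, Fzd4 and Fzd8 overlapped between the groups. For the shares of Fzd2, Fzd1 and Fzd7 the exact 2-sided permutation test gave p = 0.1, the smallest that 3 against 3 libraries allow, and 0.143 after adjustment over 30 shares in 9 families.

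**Figure D2:**
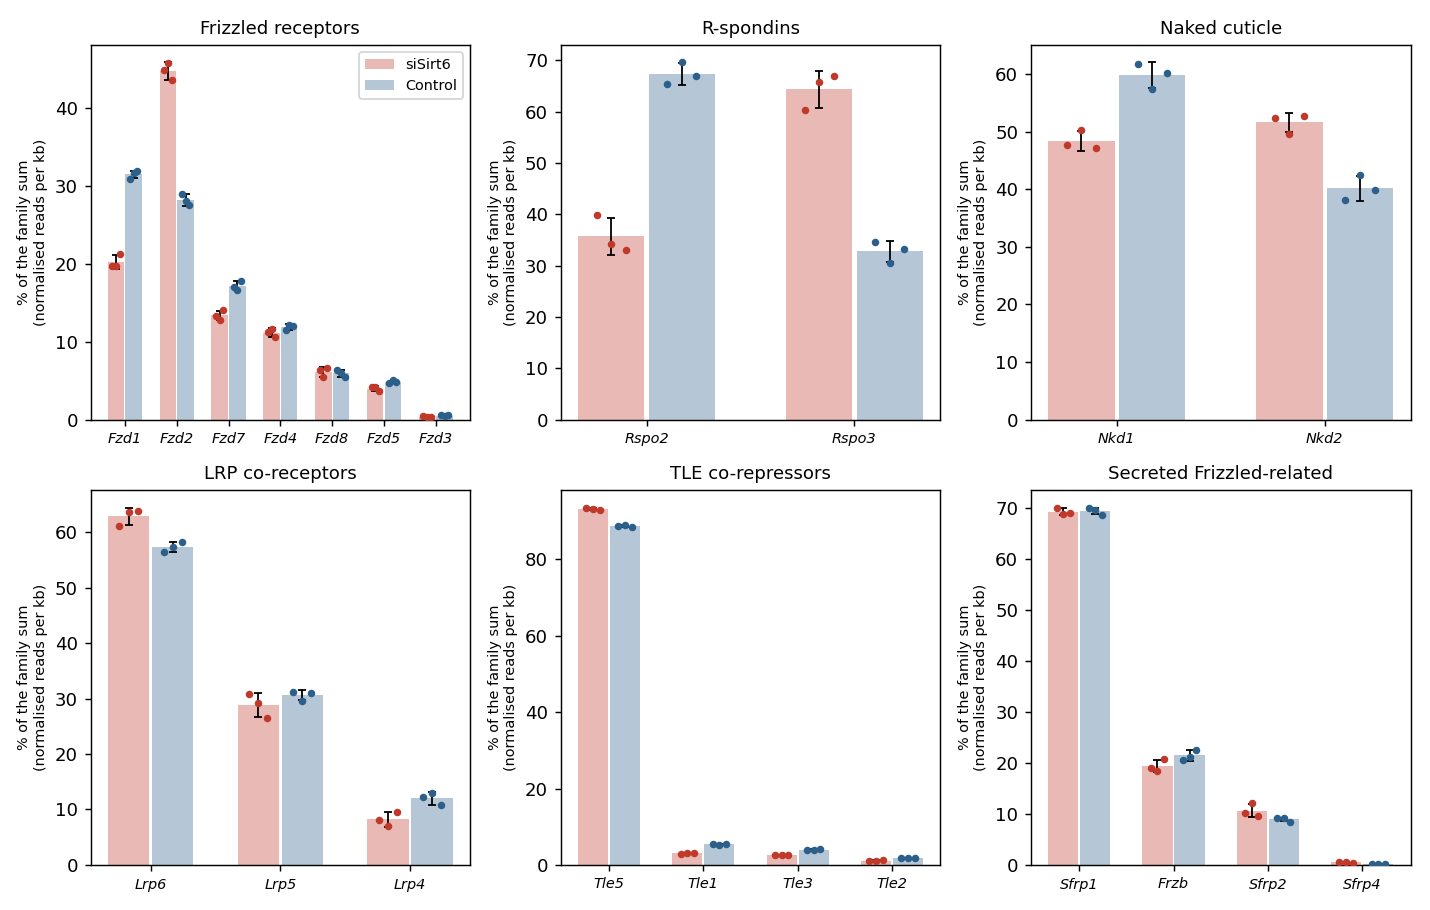
Bars give the mean share of each gene in the summed normalised reads per kilobase of the longest transcript of its family's genes analysed here. SD is the error bar and the 3 libraries are points. In each pair siSirt6 stands left of Control. Fzd2 rises to 44.7% in siSirt6 against 28.2% in Control, and Rspo3 to 64.3% against 32.8%, while the share of Sfrp1 is 69.3% and 69.5%.

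The co-receptors were lower as well. Lrp6 had 910.7, 913.4 and 938.7 normalised read counts in siSirt6 libraries, against 1083.1, 1112.9 and 1140.6 in Control libraries, a fall to 0.828. With the length and GC trend subtracted its log2 fold change turned to 0.05 and did not pass (limma adjusted p = 0.317). Lrp5 fell to 0.714, with 436.1, 397.9 and 370.5 in siSirt6 and 567.9, 544.3 and 575.6 in Control. Lrp4, a relative known for binding agrin and the Wnt antagonist sclerostin, fell furthest of the 3, to 0.519 (log2 -0.95 ± 0.133 SE), with 101.8, 84.5 and 119.7 in siSirt6 and 198.1, 214.2 and 177.7 in Control. With the trend subtracted, the log2 fold change of Lrp5 was -0.25 in place of -0.49 and that of Lrp4 -0.72 in place of -0.95. Together the 3 summed to 156.3 ± 3.15 per kilobase in siSirt6 and 206.8 ± 2.23 in Control (SD, n = 3 each). Lrp6 took 62.9% ± 1.56 of that sum in siSirt6 and 57.4% ± 0.869 in Control, and the trend was not subtracted from the sum.

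Among secreted antagonists, 4 of 5 fell, and they include the abundant ones. Dkk3, a divergent member of the Dickkopf family (ENSMUSG00000030772, chromosome 7, 112116017 to 112159057, minus strand), had 2553.1, 2540.1 and 2649.6 normalised read counts in siSirt6 libraries, against 5203.7, 5105.7 and 5161.1 in Control libraries. It fell to 0.5005 (SE of the log2 fold change 0.029, limma adjusted p = 2.71e-25) and ranked 34 by p among all tested genes. Sfrp1, a soluble protein with a Frizzled-like Wnt-binding domain (ENSMUSG00000031548, chromosome 8, 23411502 to 23449632, plus strand), had 2916.0, 2798.8 and 2881.7 in siSirt6 and 5239.8, 5210.9 and 5313.7 in Control. It fell to 0.545 (log2 -0.87 ± 0.028 SE, limma adjusted p = 5.40e-24) and ranked 56. Both genes differed between groups by many times the spread within them.

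Frzb, also called Sfrp3, had 572.5, 539.1 and 625.5 normalised read counts in siSirt6 libraries, against 1113.3, 1144.0 and 1260.3 in Control libraries, and fell to 0.494 (log2 -1.02 ± 0.059 SE). Sfrp2 fell to 0.652, with 194.8, 224.7 and 185.2 in siSirt6 and 313.2, 312.5 and 301.3 in Control. Sfrp4 alone was higher, with 23.7, 21.6 and 16.6 in siSirt6 and 10.7, 5.84 and 6.76 in Control, a 2.66-fold rise (log2 1.33 ± 0.380 SE). It passed the filter only because its siSirt6 values were high, so its passing is no support for a difference, and its call was lost with DESeq2 on 5 libraries (adjusted p = 0.0543). Per kilobase, Frzb and the 3 Sfrp genes summed to 945.1 ± 14.0 in siSirt6 and 1730.5 ± 32.3 in Control, 0.546 of the Control level. Sfrp1 kept its share of that sum, 69.3% ± 0.627 in siSirt6 and 69.5% ± 0.654 in Control.

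Of 7 cytoplasmic components, 6 fell and Nkd2 rose; with the length and GC trend subtracted, 3 were lower, 1 was higher and 3 did not pass, and their median log2 fold change was -0.055 in place of -0.297. Daam2, a formin that binds Dishevelled, fell furthest, to 0.647 (log2 fold change -0.63 ± 0.037 SE, limma adjusted p = 1.04e-16), with 1457.5, 1480.3 and 1502.7 normalised read counts in siSirt6 libraries, against 2311.6, 2315.3 and 2236.7 in Control libraries. Dvl3, a Dishevelled protein that relays the signal from Frizzled, fell to 0.768, and Gsk3b, the kinase that marks beta-catenin for destruction, to 0.774. Apc, the scaffold of the destruction complex, fell to 0.821, with 767.3, 761.8 and 771.1 in siSirt6 and 915.3, 968.8 and 918.5 in Control. Vangl1 of the planar polarity branch fell to 0.814. Gsk3b (log2 -0.06), Apc (0.03) and Vangl1 (-0.02) are the 3 that did not pass after the subtraction. The Naked cuticle proteins, which bind Dishevelled and restrain it, went apart: Nkd1 fell to 0.824, with 462.8, 440.2 and 410.0 in siSirt6 and 546.4, 515.1 and 532.1 in Control. Nkd2 rose 1.31-fold, with 500.3, 427.8 and 451.7 in siSirt6 and 331.8, 374.8 and 346.7 in Control. Nkd2 took 51.6% ± 1.69 of the pair's level per kilobase in siSirt6 and 40.2% ± 2.20 in Control (SD, n = 3 each), while their sum was 221.8 ± 14.1 and 217.6 ± 1.70.

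Ctnnb1, which encodes beta-catenin, fell to 0.786 (log2 -0.35 ± 0.025 SE, limma adjusted p = 2.02e-14). It had 5336.7, 5294.6 and 5493.8 normalised read counts in siSirt6 libraries, against 6873.2, 6913.8 and 6739.2 in Control libraries, groups well apart. The other junctional catenins were slightly higher: Ctnnd1 (p120-catenin, which holds cadherins at the membrane) rose 1.14-fold and Ctnna1 (alpha-catenin, which ties cadherins to actin) 1.05-fold. With libraries scaled to their totals over the listed genes, which shifts the median log2 fold change of all genes by -0.119, the Ctnnd1 call was lost (log2 0.07, limma adjusted p = 0.155). Ctnna1 then turned to -0.04 (limma adjusted p = 0.0758). Under that scaling 9 of the 45 genes were higher and 33 lower, against 37.7% and 49.7% of all tested genes. Among the 46, 3 genes matched by resemblance of name: Ctnnal1, Ctnnbl1 and, in the hedgehog group, Hhipl1. Without them 10 genes were higher and 32 lower of 42 tested. Ctnnal1 (alpha-catulin) fell to 0.613, with 393.6, 427.8 and 421.5 in siSirt6 and 655.7, 701.0 and 670.2 in Control. Ctnnbl1, a protein associated with the spliceosome, rose 1.44-fold.

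Among the nuclear factors analysed, both TCF factors and 3 of 4 Tle genes fell. Tcf7l1, which acts mostly as a repressor of Wnt targets, had 1028.4, 998.9 and 1034.4 normalised read counts in siSirt6 libraries, against 1274.3, 1289.1 and 1248.7 in Control libraries, a fall to 0.803. Tcf7l2 fell by the same proportion, with 383.7, 340.2 and 372.6 in siSirt6 and 466.4, 455.7 and 443.3 in Control. Tcf7l1 accordingly took 77.3% of the level of the pair per kilobase in each group. The co-repressor Tle1 fell to 0.696 (log2 -0.52 ± 0.051 SE), Tle2 to 0.770 and Tle3 to 0.829. The Tle3 call was lost with the length and GC trend subtracted (log2 -0.02, limma adjusted p = 0.648). Tle5, a short family member that lacks the WD repeats and can oppose the others, had 11125.2, 10586.0 and 10545.3 in siSirt6 and 8216.9, 8085.1 and 7951.2 in Control. It rose 1.33-fold (log2 0.41 ± 0.023 SE, limma adjusted p = 4.03e-17). With the length and GC trend subtracted its log2 fold change was 0.20 and still passed (limma adjusted p = 1.25e-09). Of the level of the 4 Tle genes per kilobase, Tle5 took 93.3% ± 0.246 in siSirt6 and 88.8% ± 0.279 in Control (SD, n = 3 each). The trend was not subtracted from these shares.

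Among 5 genes of the hedgehog group, 4 fell and Hhipl1 rose. With the length and GC trend subtracted, 3 were lower, 1 was higher and 1 did not pass. Their median log2 fold change was then -0.101 in place of -0.402. Cdon, a cell-surface co-receptor for hedgehog ligands, had 151.3, 203.1 and 186.3 normalised read counts in siSirt6 libraries, against 323.0, 317.4 and 311.9 in Control libraries. It fell to 0.568 (log2 fold change -0.82 ± 0.103 SE, limma adjusted p = 1.19e-08), and its siSirt6 libraries were the more spread. Gli2, the main activator among the Gli factors (chromosome 1, 118834132 to 119053619, minus strand), had 168.1, 191.7 and 198.8 in siSirt6 and 309.3, 299.9 and 283.9 in Control, a fall to 0.625 (log2 -0.68 ± 0.098 SE). Gli3, which acts chiefly as a repressor, fell to 0.757, with 268.0, 260.8 and 237.3 in siSirt6 and 339.6, 336.9 and 335.1 in Control. Its call was lost with the length and GC trend subtracted (log2 -0.10, limma adjusted p = 0.271).

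Smo, the transducer itself, stood at 1358.6, 1382.4 and 1410.1 normalised read counts in siSirt6 libraries and 1446.1, 1540.3 and 1490.2 in Control libraries, 0.927 of the Control mean (log2 -0.11 ± 0.041 SE, limma adjusted p = 0.0127). Its call was lost with DESeq2 on 5 libraries (adjusted p = 0.0593), without Control replicate 2 (limma adjusted p = 0.0796) and with adjustment over all 55536 annotated genes (0.0983). Hhipl1, a relative of the hedgehog-binding protein Hhip by name, rose 1.14-fold. That call was lost under listed totals (log2 0.08, limma adjusted p = 0.189) and with DESeq2 on 5 libraries (adjusted p = 0.0615). The pathway's usual readout genes Gli1, Ptch1 and Hhip, and the Wnt readouts Axin2 and Lef1, were not analysed here.

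Other genes of the pathways were taken from 4 lists. For comparison, 50.5% of all tested genes were higher and 49.3% lower, with a median log2 fold change of 0.085. Of 67 Wnt pathway genes outside the 46, 36 were in the tables and 35 tested, with 7 higher and 28 lower and a median log2 fold change of -0.254. With the length and GC trend subtracted, 10 were higher, 13 lower and 12 did not pass, and the median was -0.081. The glypican Gpc3, a cell-surface proteoglycan that binds Wnt and hedgehog proteins, fell to 0.311 (log2 -1.69 ± 0.056 SE), with 440.0, 419.6 and 474.6 normalised read counts in siSirt6 libraries, against 1494.9, 1401.1 and 1400.4 in Control libraries. The related Gpc4 fell to 0.778 and Bcl9l, a co-activator of beta-catenin, to 0.723. Wnt target genes were evenly divided, 14 higher and 15 lower of 29 in the tables (48 listed, median -0.133). With the trend subtracted, 11 were higher, 14 lower and 4 did not pass (median -0.078). Ccnd1, the cyclin that drives entry into the cell cycle and a target in both pathways' lists, had 5500.8, 5775.0 and 5459.4 in siSirt6 and 10339.1, 10355.6 and 10522.1 in Control, a fall to 0.536 (log2 -0.90 ± 0.024 SE). Gja1 (connexin 43) fell to 0.537, while the hyaluronan receptor Cd44 rose 2.22-fold and Ccn5, formerly Wisp2, 1.39-fold.

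In the hedgehog pathway list, 15 of 41 genes were in the tables, 7 higher and 8 lower (median -0.214). With the trend subtracted, 7 were higher, 6 lower and 2 did not pass (median -0.047). Gas1, a co-receptor that acts beside Cdon, had 636.8, 706.1 and 631.7 normalised read counts in siSirt6 libraries, against 2213.0, 2180.9 and 2168.2 in Control libraries. It fell to 0.301 (log2 -1.73 ± 0.047 SE, limma adjusted p = 4.15e-26), in the same direction as Cdon. Spop, the adaptor of a ubiquitin ligase known to act on Gli proteins, rose 2.02-fold, with 3018.9, 3155.5 and 3043.0 in siSirt6 and 1571.0, 1498.4 and 1486.3 in Control. The protein kinase A subunit Prkar1a fell to 0.760 and the arrestin Arrb1 to 0.637. Of 28 hedgehog target genes outside the 46, 16 were in the tables, 8 higher and 8 lower (median -0.053). With the trend subtracted, 5 were higher, 8 lower and 3 did not pass (median -0.098). Ccnd2 fell to 0.720 and Spp1 (osteopontin) rose 1.31-fold.

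Transcript length moved with the direction of change. The 45 tested genes had a median longest transcript of 4369 nt, against 3384 nt over all tested genes with a length. Among genes of 3575 to 6866 nt, the middle range of these lengths, 72.7% of 22 pathway genes and 66.4% of 2549 other genes were lower in siSirt6. The part of the fold change that follows length and GC was then subtracted. The median log2 fold change of the pathway genes became -0.141. That of all tested genes went from 0.085 to -0.005, because the fitted trend included the mean fold change of all genes. After the subtraction 12 pathway genes were higher, 25 lower and 8 did not pass (37.1% and 36.9% of all genes were higher and lower). The 8 were Gsk3b, Tle3, Vangl1, Gli3, Fzd8 and Lgr4, with log2 fold changes between -0.10 and -0.02, and Lrp6 and Apc, which turned to 0.05 and 0.03. The falls of Dkk3 (-0.99), Sfrp1 (-0.75), Frzb (-1.03), Fzd1 (-0.92) and Rspo2 (-1.09) and the rises of Wnt2 (0.86), Wnt5a (0.71), Fzd2 (0.32) and Rspo3 (0.78) passed after the subtraction. The Wnt pathway list then held 10 higher, 13 lower and 12 that did not pass.

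**Figure D3:**
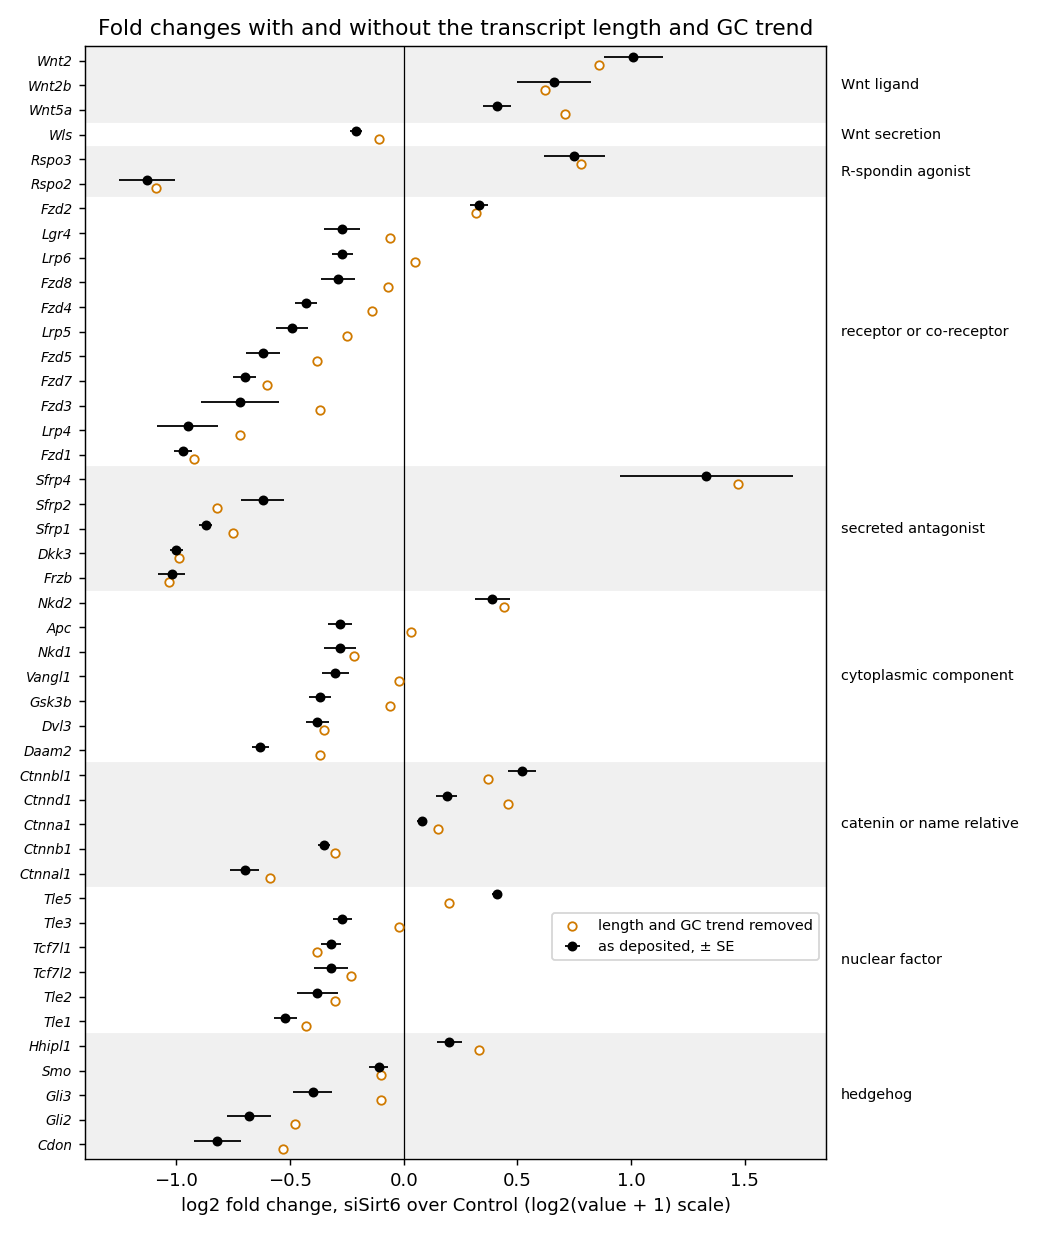
Filled points give the log2 fold change, siSirt6 over Control, of each tested pathway gene with its standard error, and open points the value after subtraction of what follows length and GC. Open points of the antagonists and of Fzd1 and Rspo2 stay between -1.09 and -0.75 except for Sfrp4, while those of Lrp6 and Apc lie at 0.05 and 0.03.

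**Figure D4:**
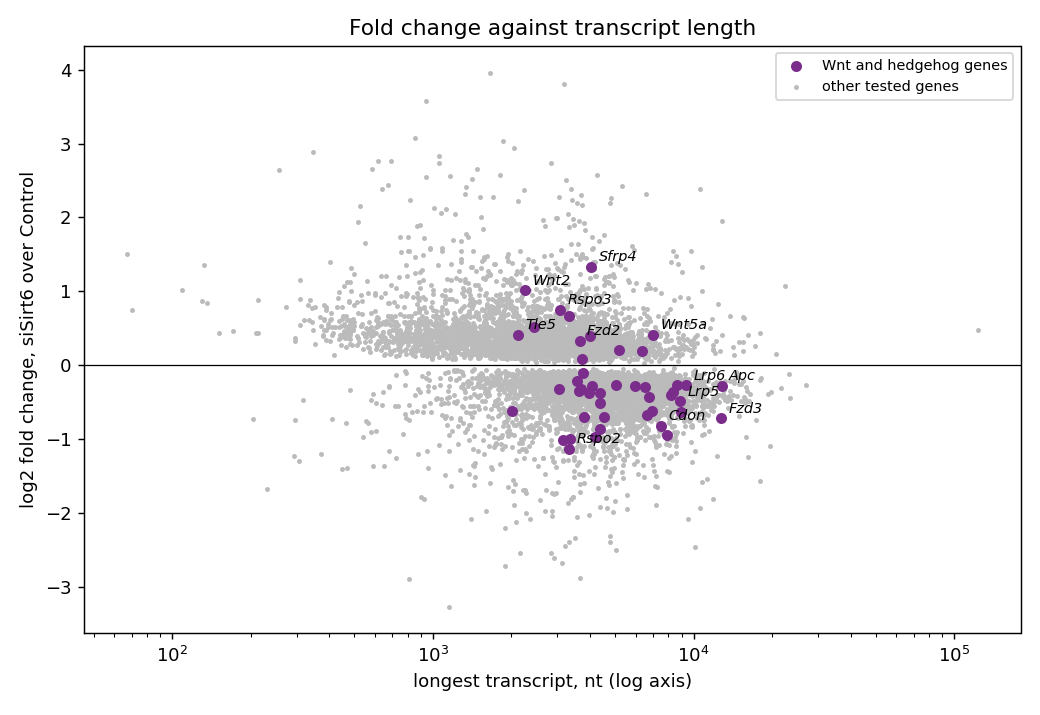
The log2 fold change, siSirt6 over Control, is plotted against the longest transcript of each gene (log axis) for 45 pathway genes and the other tested genes with a known length. Few genes lie near 0 because the tables hold almost only genes that differ, and the longest pathway transcripts (Apc and Fzd3) lie below 0.

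Of the 46 genes, 25 overlap another annotated gene, 20 of them one on the opposite strand, among them Ctnna1 with Lrrtm2 and Ctnnb1 with Ulk4. Whole gene spans with their introns were compared, and overlap of exons was not measured. None of the overlapped genes is in the tables. Libraries were made with a stranded kit, and the sources used here do not state whether counting used the strand.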

How the data were processed

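RNA of 6 samples was sequenced after library preparation with a stranded mRNA kit, per the labels' protocols. HTSeq, Cufflinks, HISAT2, Trimmomatic and the mm10 build are named in the submitters' processing notes, with neither role nor order. The deposited signal values are reads divided by 1 factor per library: divided by the value of 1 read, 100% were whole numbers within 0.001. The sources used here do not say how the authors set these factors. No column lacked a sample.

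Groups were compared by 2-sided tests on log2(value + 1) with limma 3.58.1 (R 4.3.3; intensity trend, robust), which understates changes of low genes; N-fold values are ratios of group means of deposited values. The fit covered all 7179 genes with at least 10 in at least 3 libraries (205 left out), adjusted by Benjamini-Hochberg at 0.05. The design planned edgeR for counts and limma for other values, and limma was used. Count tests (edgeR 4.0.16, DESeq2 1.42.0) ran as alternatives on recovered reads of 5 libraries, since the automatic unit check did not accept siSirt6 replicate 1. GENCODE vM21 supplied positions, transcript lengths and GC (7331 of 7384 genes), and RefSeq the promoters. Replicates differed by 1.92 to 2.49 times counting noise (chi-square per degree of freedom), so no 2 files held the same library within counting noise; this does not show that they came from separate cultures.

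Genes were chosen by symbol; from each pathway list the 4 tested genes with the smallest p are named, among them Tle5 and Sfrp1, which belong to the 46 and were left out of the list counts. The genes and lists were chosen with earlier results of these data known.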

Additional observations from a re-analysis of the deposited data

How the results depend on the processing

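In 17 alternatives, 32 of 45 tested genes kept their direction and their call; 10 lost the call and 3 turned direction in at least 1. The counts of pathway genes higher and lower stayed within 1.5 times of 12 and 33, at 9 and 33 under listed totals, 12 and 25 after subtraction of the length and GC trend, and 10 and 32 with DESeq2. The median log2 fold change of the 45 genes was -0.317 as reported, -0.436 under listed totals, -0.351 with edgeR and -0.353 with DESeq2 on 5 libraries, and -0.141 with the trend removed. Removal of the trend also brought the median over all tested genes to -0.005. Lrp6 (0.05) and Apc (0.03) turned with the trend removed and Ctnna1 (-0.04) under listed totals. Without 1 library each, 12 genes were higher and 32 to 33 lower, the median lay between -0.344 and -0.301, Sirt6 between -2.31 and -2.06, and over all genes 3540 to 3577 were higher and 3445 to 3474 lower. Samples of equal number were not treated as pairs in the main fit. Their deviations from the group means correlated at -0.0195, 0.0268 and -0.000793, which cannot show whether they were prepared together. Fitted with the replicate block, 12 genes were higher and 33 lower, the median stayed at -0.317, Sirt6 at -2.21, and 3629 and 3540 of all genes were called. The depth of whole libraries is unknown, and genes near 10 normalised read counts, such as Sfrp4, are the least precise. The cause of each change was not tested.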
